A study of Mus musculus with 2 samples.

Results

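The Rac, Elmo and Dock engulfment machinery of mouse bone marrow-derived macrophages (BMDMs) was read here through 10 genes. Lrp1 and Itgb5 encode receptors, and Gulp1 and Crk adaptors. Dock1 and Dock2 encode exchange factors, Elmo1 and Elmo2 their subunits, and Rac1 and Rac2 the GTPases that the exchange factors act on. The genes were listed by name from the known pathway, and every probe set that the array's annotation gives to a single one of them was used. All 10 of the 18194 genes named in this way had a probe set, 29 probe sets in total. The macrophages were grown with M-CSF for more than 7 days from bone marrow of female C57BL/6J mice aged 8 weeks, and only adherent cells were used. One culture was kept for 1 hr with medium and one with the supernatant of apoptotic W3 cells, and RNA from each was hybridized to 1 Affymetrix array. W3 cells, a Fas-bearing line of mouse T cells, had been exposed to human Fas ligand for 30 min, washed, and kept for 60 min in medium holding 1% FCS, from which the supernatant was taken. The control medium held 10% FCS by the labels, and living W3 cells gave no supernatant to these cultures, so serum, factors of living cells and factors of apoptotic cells cannot be told apart.

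Phagocytes take up apoptotic cells by pushing actin-rich membrane around them, a step driven by the GTPase Rac. Lrp1, a large endocytic receptor of the LDL receptor family, and the integrin that Itgb5 forms with Itgav are surface proteins linked to this uptake, Lrp1 through the adaptor Gulp1 and the integrin through the adaptor Crk. Dock proteins load Rac with GTP, and Elmo proteins bind Dock1 or Dock2 and are needed for that exchange to work well in cells. Rac2 and Dock2 are found mainly in blood cells, while Rac1 and Dock1 are widely expressed. These proteins are controlled largely at the membrane, so an mRNA level says little on its own about their activity.

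The deposited values are MAS5 intensities, linear in scale, of 45101 probe sets, which the authors' software had brought to a common trimmed mean. A floor for dim signals of 38.4 was taken from probe sets of olfactory and vomeronasal receptors, and a gene is called measured when its brightest probe set lies above the floor on at least 1 array. Of the named genes 11977 were measured. With 1 array per condition no test was possible, and no value has an SD or a p-value. As a yardstick within these arrays, probe sets of the same gene disagreed in their log2 ratio with an SD of 0.28, or 1.21-fold, which covers no variation between cultures or arrays. The cell type fitted its label, since all 11 macrophage markers on the array were measured (Csf1r read 30999 with medium and 28572 with the supernatant). Of 16 T cell markers 11 were under the floor on both arrays, Cd3d, Cd3e and Cd3g among them. The 5 measured ones did not share a direction. Zap70 was 1.51-fold higher with the supernatant (208 and 313). Cd28 (393 and 283), Fas (113 and 75.7), Cd5 (65.9 and 42.8) and Cd8a (72.9 and 20.7, the latter under the floor) were lower. The summed signal of the 16 was 1019 with medium and 834 with the supernatant.

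Of the 10 engulfment genes 9 were measured in BMDMs, and Gulp1 was under the floor. Among the 9 none was 2-fold or even 1.5-fold higher or lower after 1 hr with the apoptotic cell supernatant. Over all measured genes the share past 2-fold was 0.96% upward and 0.843% downward, and past 1.5-fold it was 3.71% and 4.47%, so that a count of 0 among 9 genes lies close to the background. On the brightest probe set of each gene 4 of the 9 were higher and 5 lower, with log2 ratios of supernatant to medium from -0.30 for Elmo1 to 0.19 for Crk. Their median was -0.02, and that of all measured genes was also -0.02. By comparison Nr4a1, an orphan nuclear receptor that responds within the first hour to many stimuli, read 212 with medium and 7584 with the supernatant on the same arrays. In RNA from a whole culture, fewer expressing cells and less RNA per cell cannot be told apart.

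**Figure D1:**
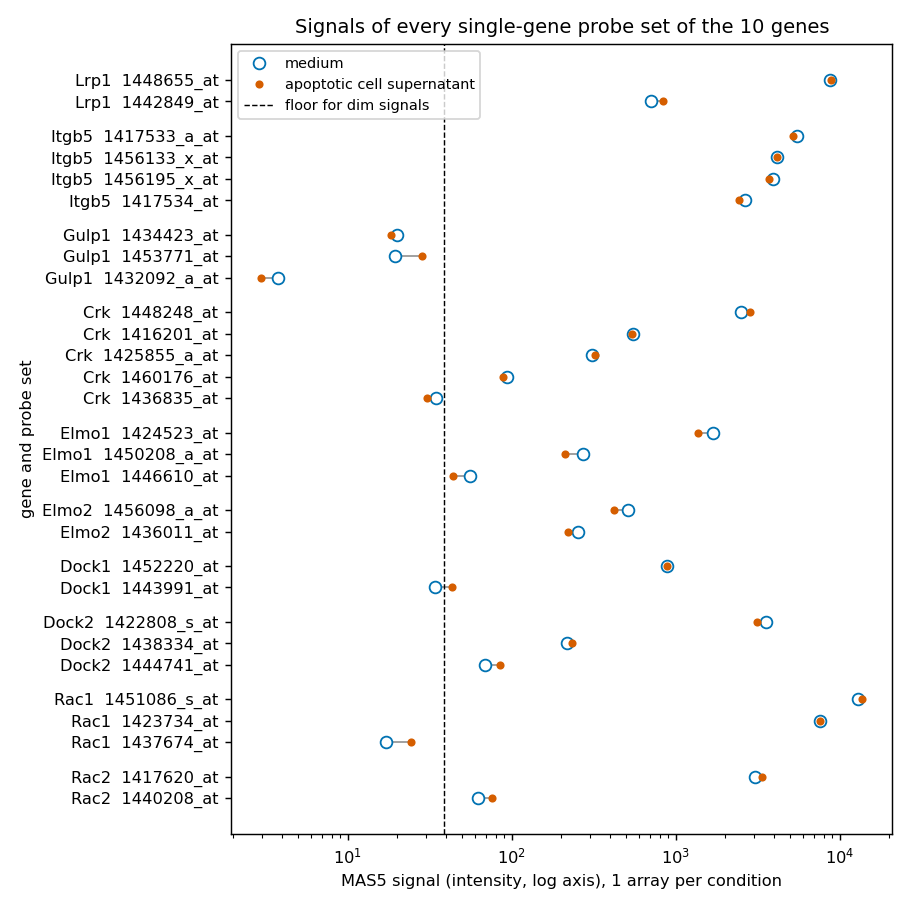
MAS5 signal (intensity, log axis) of the 29 probe sets of the 10 engulfment genes, on the medium array (open circles) and on the supernatant array (filled circles). The dashed line marks the floor, 38.4. The symbols overlap or nearly overlap for most probe sets, those of Elmo1 and Elmo2 all lie further left with the supernatant, and the 3 probe sets of Gulp1 lie left of the floor.

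Both receptors gave strong signals that hardly differed between the conditions. Lrp1, which binds calreticulin on the surface of dying cells among many other ligands, read 8682 with medium and 8797 with the supernatant, a ratio of 1.01. Its second probe set was dimmer and read 704 and 840, a ratio of 1.19. Itgb5, the beta chain of the vitronectin receptor alpha v beta 5, read 5451 and 5211 on its brightest probe set. All 4 Itgb5 probe sets were slightly lower with the supernatant, with ratios from 0.924 to 0.99. The largest of these differences was 1.08-fold, well under the disagreement between probe sets of one gene. Itgav, the alpha chain that pairs with Itgb5, read 16478 and 16672.

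The adaptors differed in whether they were read at all. Gulp1, the mammalian counterpart of the worm engulfment gene ced-6, had signals of 20.0, 19.6 and 3.76 on its 3 probe sets with medium. With the supernatant they were 18.3, 28.3 and 2.97. All 6 values lie under the floor and within the range of the receptor probe sets, which reached 62.4, so Gulp1 mRNA was not detectable above the dim background on either array and no ratio is given. Crk, which links phosphorylated docking proteins at adhesion sites to Dock1, was read by 5 probe sets. The brightest went from 2505 with medium to 2852 with supernatant, 1.14-fold higher. That is the largest upward ratio when each of the 9 genes is read on its brightest probe set. The other 3 above the floor had ratios of 0.977, 1.05 and 0.947, so they lie on both sides of 1. The fifth was under the floor on both arrays (34.7 and 30.3). Averaging the log2 signals of all 5 gave Crk a log2 ratio of -0.01.

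RefSeq promoter sequence (GRCm38.p6), 250 bases before to 50 after an annotated start, was at hand for 8 of the 10 genes, with 11 starts among them. The core of the cAMP response element, TGACG or its reverse complement CGTCA, was looked for on both strands, because cAMP raises Nr4a1 in many cells. Of these 11 promoters 1, that of Crk, holds the core, and 20.8% of all 32851 promoters in the table do. The whole element TGACGTCA, which contains both forms of the core, is in 0 of the 11 and in 1.79% of all promoters. The Crk promoter (chr11:75679009-75679308, plus strand) and that of Nr4a1 (chr15:101266596-101266895, plus strand) are shown as examples of sequences that hold the core. The core is in capitals.
Crk: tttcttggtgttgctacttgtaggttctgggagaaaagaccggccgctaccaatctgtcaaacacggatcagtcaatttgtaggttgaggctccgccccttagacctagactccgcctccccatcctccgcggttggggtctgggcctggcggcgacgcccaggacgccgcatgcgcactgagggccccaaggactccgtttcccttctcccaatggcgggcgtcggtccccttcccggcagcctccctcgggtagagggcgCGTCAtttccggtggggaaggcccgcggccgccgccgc
Nr4a1: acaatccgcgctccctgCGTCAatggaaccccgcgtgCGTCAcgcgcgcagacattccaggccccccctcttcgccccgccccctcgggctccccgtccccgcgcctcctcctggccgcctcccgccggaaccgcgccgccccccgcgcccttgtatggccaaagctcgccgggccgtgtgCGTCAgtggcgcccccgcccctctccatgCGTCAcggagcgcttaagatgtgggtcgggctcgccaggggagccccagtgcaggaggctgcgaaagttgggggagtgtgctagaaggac
The single Crk match begins 13 bases into the transcript, while the 4 in Nr4a1 begin at -233, -213, -69 and -40 from the start. Among other early response genes, Nr4a2, 44.3-fold higher with the supernatant, has 4 matches, and Il1b, 22.7-fold higher, has 0. Of the 5 Egr2 starts 2 have 0 matches, and each of the others has 2. The sequences of those others overlap, so these are the same 2 matches in the genome. Whether the core bears on these ratios was not tested. These are matches of letters and no evidence of a bound factor.

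Both Elmo genes read lower with the apoptotic cell supernatant on every probe set, as did Itgb5, and by more than Itgb5 did. Elmo1 went from 1698 with medium to 1377 with supernatant on its brightest probe set, 1.23-fold lower. Its second probe set read 273 and 213, 1.28-fold lower. The third read 55.5 and 44.2, 1.26-fold lower. Both of its signals are close to the floor and within the range of the olfactory and vomeronasal receptor probe sets, which reached 62.4. Thus the log2 ratios of the 3 Elmo1 probe sets lay within 0.06 of one another. Elmo2, its close relative, read 509 and 419 on the brighter probe set, 1.21-fold lower. The other Elmo2 probe set read 253 and 221, 1.15-fold lower. All 5 Elmo probe sets were therefore lower, a grouping made after the values were seen, and the other 18 probe sets of the engulfment genes over the floor on both arrays were split 9 and 9. The size is small: the ratio of Elmo1 is 1.10 times the SD of probe set disagreement, and 24.0% of all measured genes differed between the arrays by as much as Elmo1 or more. That of Elmo2 is 1.01 times this SD, and 26.1% of measured genes differed as much. Across the array, the 22998 probe sets brighter than the floor in both conditions had a median log2 ratio of -0.03, also slightly lower. How many genes on the array read lower on every probe set was not counted. Probe sets of the same gene read the same pair of RNAs and are not replicates. Agreement of the 5 Elmo probe sets therefore says nothing about variation between cultures. No further pair of cultures was measured.

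The Dock exchange factors gave no common direction. Dock1, the founding member that acts with Elmo1 and Crk, read 890 with medium and 881 with the supernatant, a ratio of 0.989. Its other probe set was under the floor with medium (34.2) and just above it with the supernatant (43.0). Dock2, which drives migration of lymphocytes and other blood cells, read 3534 and 3139 on its brightest probe set, 1.13-fold lower. Its dimmer probe sets went the other way, at 216 and 234 (1.08-fold higher) and at 69.0 and 85.1 (1.23-fold higher). The brightest one carries the suffix _s, which marks probes that match more than 1 transcript, and without such probe sets the log2 ratio of Dock2 turned from -0.17 to 0.11. The direction of Dock2 therefore depends on the probe set chosen. The signals above the floor show that BMDMs held mRNA of both the widely expressed and the blood cell exchange factor.

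Promoters of this pair of exchange factors are shown because the genes are read in the same cells but differ in where they are known to be active. Dock1 (chr7:134670437-134670736, plus strand) and Dock2 (chr11:34783856-34784155, minus strand) are printed with each CG dinucleotide in capitals.
Dock1: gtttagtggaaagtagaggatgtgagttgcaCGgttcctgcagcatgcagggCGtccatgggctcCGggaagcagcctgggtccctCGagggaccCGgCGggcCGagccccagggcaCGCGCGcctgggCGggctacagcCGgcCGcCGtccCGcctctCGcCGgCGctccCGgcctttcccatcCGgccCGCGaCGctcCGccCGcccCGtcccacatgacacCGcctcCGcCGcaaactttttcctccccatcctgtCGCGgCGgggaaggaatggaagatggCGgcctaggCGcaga
Dock2: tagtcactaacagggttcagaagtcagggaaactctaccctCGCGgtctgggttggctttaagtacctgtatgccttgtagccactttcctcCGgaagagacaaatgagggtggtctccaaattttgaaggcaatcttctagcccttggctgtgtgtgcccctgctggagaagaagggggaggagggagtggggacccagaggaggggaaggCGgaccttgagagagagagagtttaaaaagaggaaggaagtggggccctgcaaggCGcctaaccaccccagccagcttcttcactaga
The Dock1 sequence holds 34 CG dinucleotides with a GC content of 70.7%, and that of Dock2 holds 5 with 54.3%. The median over all promoters of the table is 7, with 52.7% GC, and over the 11 promoters of the engulfment genes it is 16, with 60.0% GC. The GTPases Rac1 and Rac2 have no entry in the table.

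The GTPases themselves were close to equal on both arrays. Rac1, which drives membrane ruffling and cup formation, went from 12940 with medium to 13741 with supernatant on its brightest probe set, 1.06-fold higher. That probe set again bears the suffix _s. A second one without it read 7602 and 7560, a ratio of 0.995, and the third was under the floor (17.1 and 24.5). Rac2, which also activates the oxidase of phagocytes, read 3058 and 3341, 1.09-fold higher. Its dim probe set read 62.7 and 76.4, 1.22-fold higher. Both Rac2 probe sets were thus higher and those of Rac1 were on either side of 1, all within the disagreement between probe sets of one gene except the dim Rac2 probe set, which lies just past it.

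**Figure D2:**
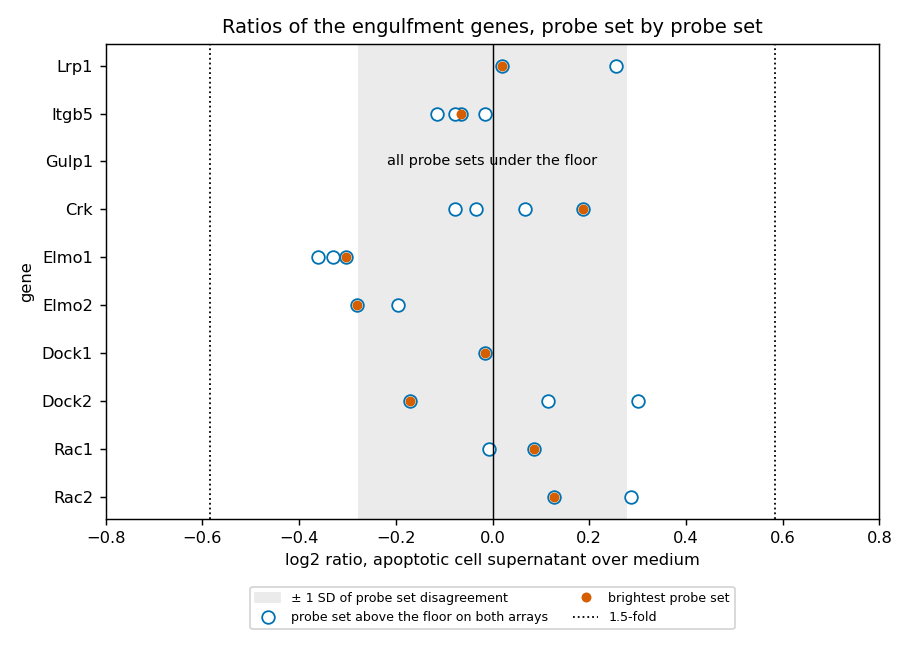
Log2 ratio of supernatant to medium for the probe sets over the floor on both arrays (open circles; filled, the brightest of each gene), with the SD of probe set disagreement as a gray band and 1.5-fold as dotted lines. All 23 probe sets lie between the dotted lines, from 1.28-fold lower to 1.23-fold higher, and Elmo1 lies left of the band with all 3 of its probe sets.

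Over the 9 measured genes 7 had a log2 ratio smaller than the disagreement SD of 0.28, and 73.5% of all measured genes did. Elmo1 and Elmo2 were the exceptions as reported, but Elmo2 fell within this SD under 6 of the 9 other settings tried and Elmo1 under 1 of them, median-centring (-0.27). Among probe sets over the floor on both arrays, the lowest ratio was 0.779, for Elmo1, and the highest 1.23, for Dock2. The members with the smallest differences were Dock1 and Lrp1, since 92.8% and 91.5% of measured genes differed by as much or more. The direction of such small ratios shifts with the scaling. After median-centring Dock1 turned from -0.02 to 0.01 on the log2 scale, and after quantile normalization Lrp1 turned from 0.02 to -0.01.

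Genes that work beside these 10 were read from 9 lists of relatives, exchange factors, effectors and receptors, of which 124 genes were measured. Of these 1 was at least 2-fold higher, Mertk, and 0 were at least 2-fold lower, against 0.96% and 0.843% of all measured genes. At 1.5-fold 4 were higher and 2 lower, and the median log2 ratio was -0.04. The shares at 1.5-fold over all measured genes were 3.71% and 4.47%, so these counts are near the background and say nothing particular of the related genes.

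Among 11 measured relatives of Elmo and Dock, none reached 1.5-fold. Elmod2 was 1.43-fold lower (771 and 540) and Elmod3 1.34-fold higher (119 and 159), and both share the ELMO domain but are known as regulators of Arf-type GTPases. Of 16 other exchange factor genes, listed for Rac though not all act mainly on it, none reached 1.5-fold. Tiam2 (57.2 and 42.4) and Arhgef2 (1040 and 826) showed the largest differences. Both Tiam2 signals are dim. A second Tiam2 probe set went the other way, from 30.7, under the floor, to 40.8.

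Downstream of Rac, 18 measured effectors and subunits of the WAVE complex, which turns active Rac into branched actin, all lay within 1.5-fold. Nckap1 (83.6 and 112) and Abi3 (146 and 186) had the largest differences. Of 11 genes of the Arp2/3 complex and WASP group 1 was at least 1.5-fold higher, Wasl. It encodes N-WASP, an activator of Arp2/3, and read 449 and 831 on its brightest probe set, 1.85-fold higher. Its other probe sets over the floor on both arrays were 1.04-fold and 1.28-fold higher, so they pointed up by unequal amounts. The dimmest read 17.4, under the floor, with medium and 42.2, just above it, with the supernatant. Cttn, cortactin, read 199 and 279. The 4 measured genes of the phagocyte oxidase, a Rac2 target, lay within 1.09-fold, with Ncf4 (4752 and 5160) and Cybb (12719 and 13400) the furthest from equal.

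Among 16 partners of Crk and integrin signaling genes 1 was at least 1.5-fold higher, Abl2. Abl2 encodes a tyrosine kinase of the Abl family, whose members phosphorylate Crk, and read 1041 and 1925, 1.85-fold higher. A second Abl2 probe set was 1.30-fold higher, while its dimmest read just above the floor with medium (39.8) and under it with the supernatant (9.37). Bcar1, the docking protein p130Cas, read 75.7 and 103 on one probe set, 1.36-fold higher, but 77.4 and 37.6, the latter under the floor, on the other, at least 2.02-fold lower, so its direction depends on the probe set. Of 13 other integrins 1 reached 1.5-fold, Itga3, which read 59.3 with medium and 33.0, under the floor, with the supernatant. On floored signals it was 1.54-fold lower. Its medium signal lies within the range of the olfactory and vomeronasal receptor probe sets, which reached 62.4. The other Itga3 probe sets were under the floor on both arrays, so this difference rests on a dim signal. Itgb3 read 63.4 and 44.1. Of 10 genes listed beside Lrp1, not all of them members of the LDL receptor family, none reached 1.5-fold. Sort1 (347 and 274), which is not such a member, and Lrp4 (121 and 143) were the furthest from equal. The dimmer probe sets of Sort1 went the other way, at 52.6 and 70.1 and at 51.9 and 56.4.

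Of 25 other receptors and bridging proteins for apoptotic cells, Mertk was the one past 2-fold. Mertk, a receptor tyrosine kinase that recognizes phosphatidylserine through bridging proteins, went from 471 with medium to 1050 with supernatant, 2.23-fold higher, on the single probe set the annotation gives it. Scarf1 (117 and 214) was 1.82-fold higher and Megf11 (76.7 and 39.4) 1.95-fold lower, both named after their values were seen. The supernatant signal of Megf11 lies at the floor, so the size of its difference rests on a dim signal.

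**Figure D3:**
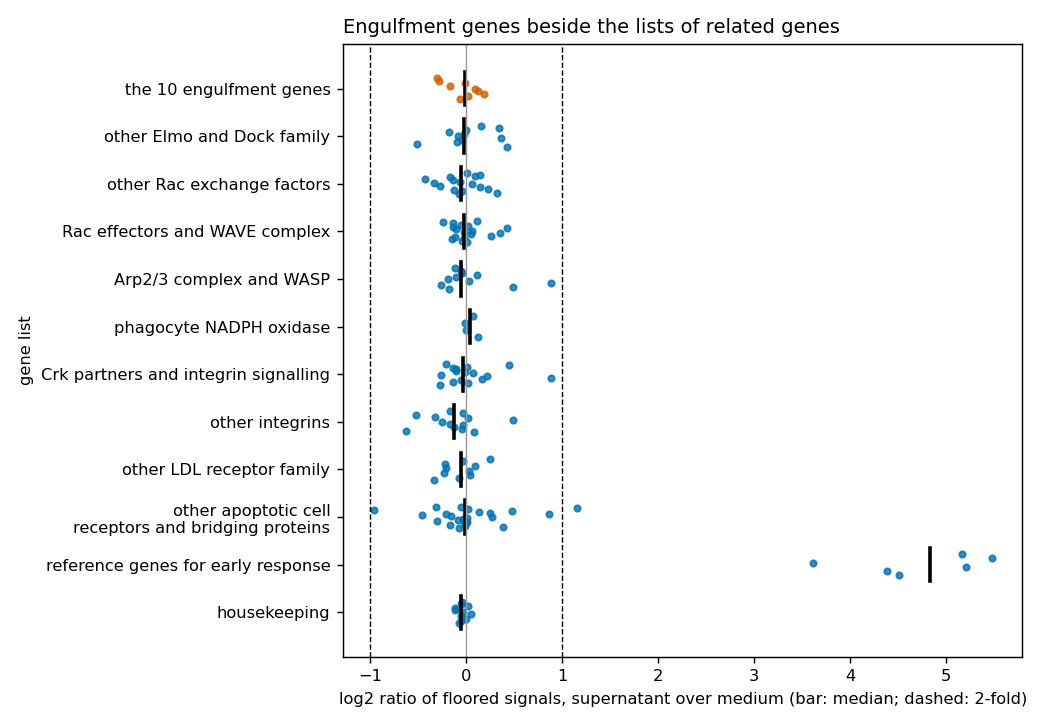
Supernatant over medium as a log2 ratio of floored signals, with a point per measured gene of the engulfment genes, 9 lists of related genes, 6 early response genes and 11 housekeeping genes, bars at the median of each list and 2-fold differences as dashed lines. The 9 engulfment genes lie between -0.30 and 0.19, Mertk at 1.16 is the only related gene past the dashed lines, and the early response genes have a median of 4.83.

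**Figure D4:**
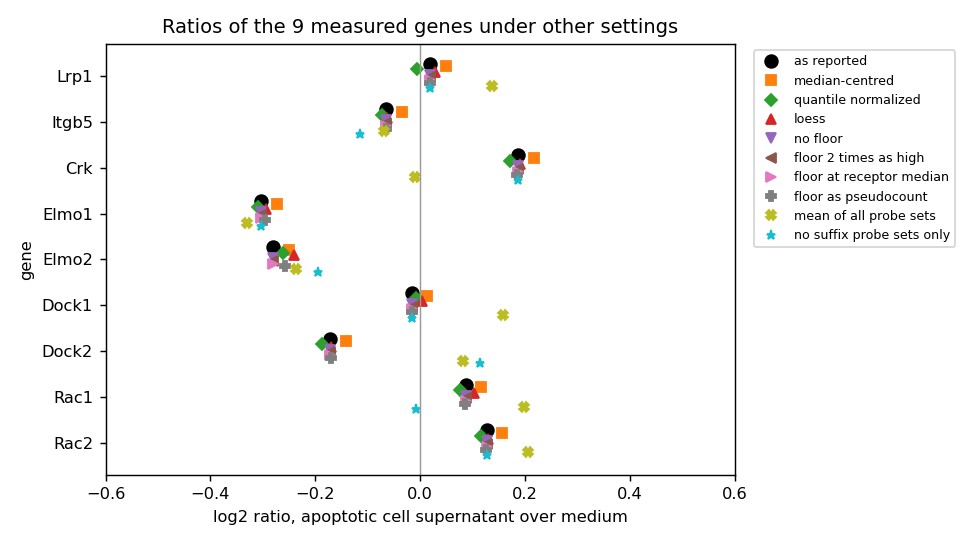
Log2 ratio of supernatant to medium for the 9 measured engulfment genes, as reported (black) and under 9 other settings of scaling, floor and probe set choice (colored symbols). Elmo1 stays between -0.33 and -0.27 and Elmo2 between -0.28 and -0.20, while the points of Crk, Dock1, Dock2, Rac1 and Lrp1 fall on both sides of 0.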

How the data were processed

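The authors hybridized biotin-labeled cRNA to a whole-genome Affymetrix mouse array and deposited MAS5 signals, an intensity per probe set. The submitters' processing notes and the methods name this software, and a genome build is not given in the sources used here. The annotation table of the array gave 34958 probe sets 1 gene and 932 several, while it does not list 9211. Names were checked by Entrez identifier in RefSeq GRCm38.p6 for 34754 probe sets, and 0 changed. The floor is the higher of the 95th percentiles of the 2 arrays over 80 receptor probe sets, and lower signals were set to it. The brightest probe set, by the mean of both arrays, stood for its gene. The disagreement SD is that of the difference in log2 ratio between the first 2 probe sets, by identifier, of 5196 genes, divided by the square root of 2. No test was run, since each condition has a single array, and precision is limited by that number. The 10 genes, the lists and the thresholds were chosen with earlier results of these data known. From each list, genes past 2-fold were named, at most 4 per direction, or otherwise the 2 with the largest difference. Markers of B cells (4 of 7 measured), neutrophils (5 of 10), dendritic cells (3 of 7) and stromal cells (3 of 10) were read as well. Of these 0 were past 2-fold on floored signals, where a ratio to a signal under the floor is a lower bound (S100a9 read 5.85 and 73.0, at least 1.90-fold higher), and 0 of 11 housekeeping genes passed 1.5-fold. Some related genes are not reported here. The steps were run on simulated arrays, with fold changes set in bright genes and noise smaller than the disagreement SD. That run checks the code and says nothing about errors in these arrays. Python 3.11.15, numpy 2.4.6, pandas 2.3.3, statsmodels 0.14.6 and matplotlib 3.10.9 were used.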

Additional observations from a re-analysis of the deposited data

How the results depend on the processing

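The alternatives were median-centring, quantile normalization and loess with a span of 30%; no floor, a floor 2 times as high, a lower floor set by the receptors' median signal (10.0) and the floor as a pseudocount; and averaging a gene's probe sets on the log2 scale or only probe sets without a suffix. Under each of these 9 alternatives 0 engulfment genes were at least 1.5-fold higher or lower. Their median log2 ratio, -0.02 as reported, ranged from -0.02 to 0.08. Of 81 ratios of single genes 1 moved by more than the disagreement SD, that of Dock2 with only probe sets without a suffix (0.11). With the mean of all probe sets, which gives dim probe sets equal weight, Dock2 was 0.08, Dock1 0.16, Rac1 0.20, Lrp1 0.14 and Crk -0.01. With no floor or the lower floor Gulp1 counts as measured, on signals of 19.6 and 28.3. These lie above the receptors' median signal but under the floor of 38.4. Counts of related genes past 2-fold were less stable, with 18 of 162 differing by more than 1.5 times, mostly with no floor or the lower floor. No paired analysis was possible because the conditions hold a single array apiece.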

Other observations

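The actin regulators Wasf2 and Cfl1, picked after their values were seen, read nearly the same on both arrays. They do not stand for actin regulators as a class, since Wasl and Cttn, given above, differed more. Wasf2, the WAVE protein, read 7328 and 7434, and Cfl1, the actin-severing protein cofilin, 28188 and 28252. The differences of Wasf2 and Cfl1 are each under 1.5-fold and rest on 1 array per condition.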
